A study of Mus musculus with 16 samples.

Results

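The Hedgehog pathway genes examined here were Shh, Ihh, Ptch1, Smo, Hhip, Gli1, Gli2, Gli3 and Sufu. They were chosen by gene symbol from the deposited gene table, and all 9 were found, each on 1 of the 25054 entries of that table. The table held 16 RNA-seq libraries of newborn mouse lung and liver. They were made to ask what N-acetyl cysteine (NAC) given during gestation did to gene expression in wild-type pups and in pups heterozygous or null for Man1a2. Man1a2 encodes a Golgi mannosidase that trims N-linked sugars, and the null allele lacks exon 2. All pups came from C57BL/6J breeding pairs in which both parents were heterozygous for that allele. Breeders had received either a NAC solution giving up to 1 g/kg of body weight or plain water (placebo), from before mating until delivery. Newborn pups were watched for 24 hours and sorted by survival and genotype into 4 groups. Survivors were either wild-type (WT) or heterozygous, and pups that died were either heterozygous or null. Each group, treatment and tissue label was 1 library of RNA pooled over 3 experiments (2 for dead heterozygous pups). Genotype and survival were therefore crossed in the heterozygous pups alone, because WT pups entered as live pups and null pups as dead pups. With 1 library per cell of the design, spread could be measured only across pup groups, and p-values below refer to the spread among these pooled libraries.

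Hedgehog ligands such as Sonic hedgehog (Shh) and Indian hedgehog (Ihh) bind Patched-1 (Ptch1), which otherwise holds the membrane protein Smoothened (Smo) inactive. Released Smo acts at the primary cilium to free the GLI transcription factors from Suppressor of fused (Sufu), after which Gli1, Ptch1 and the ligand-binding antagonist Hhip are themselves transcribed as pathway targets. In the developing lung, Shh is made by the epithelium and received by the surrounding mesenchyme, and in the liver the pathway is known mainly from bile duct cells and stellate cells.

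On the GRCm38 build, Shh lies at chr5:28456815-28467256, Ihh at chr1:74945315-74951672 and Ptch1 at chr13:63508328-63573598. Smo lies at chr6:29735503-29761365, Hhip at chr8:79965851-80058006 and Sufu at chr19:46396896-46488804. Gli1 lies at chr10:127329882-127341974, Gli2 at chr1:118834132-119053619 and Gli3 at chr13:15463235-15730026. Exons of Shh, Hhip, Gli1 and Gli3 overlap exons of genes on the opposite strand (for Gli1, Arhgap9), and whether the counting used strand was not given in the sources used here, so reads of such partners cannot be told apart from those of the member. Promoter sequences of 300 bases, most of them before the start, were matched in RefSeq GRCm38.p6 for 7 of the 9 members, and those of Shh and Gli1 were not matched. For Ptch1 and Gli3 the RefSeq window lies inside the gene models above, so it is not that of their outermost start. The promoters of Hhip and Ihh are shown because they are the antagonist and the ligand with opposite lung and liver levels below. Capitals mark the core of the GLI binding motif, CCACCC, or its reverse complement GGGTGG.
Hhip, chr8:80057959-80058258, minus strand: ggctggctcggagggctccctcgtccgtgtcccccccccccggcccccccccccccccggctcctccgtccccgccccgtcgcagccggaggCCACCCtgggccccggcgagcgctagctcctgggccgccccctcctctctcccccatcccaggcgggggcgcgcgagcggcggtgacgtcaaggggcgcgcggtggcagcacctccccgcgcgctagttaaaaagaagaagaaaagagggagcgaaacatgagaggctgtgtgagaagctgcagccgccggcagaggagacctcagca
Ihh, chr1:74951623-74951922, minus strand: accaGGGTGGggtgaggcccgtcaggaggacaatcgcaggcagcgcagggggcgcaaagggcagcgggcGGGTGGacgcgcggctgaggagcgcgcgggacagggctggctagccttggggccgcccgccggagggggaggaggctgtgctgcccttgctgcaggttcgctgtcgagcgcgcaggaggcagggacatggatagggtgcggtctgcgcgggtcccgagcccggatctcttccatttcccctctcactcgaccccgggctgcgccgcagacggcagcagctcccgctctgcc
The core occurred 2 times in the promoters of Ihh and Gli2, 1 time in those of Hhip, Gli3 and Smo, and not at all in those of Ptch1 and Sufu, on either strand. It is a short motif that was held by 31.6% of 32544 promoters of this length. The longer GLI consensus GACCACCCA, which contains the core, was held by 0 of the 7 promoters and by 0.246% of all.

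Depth ran from 7236873 to 16107755 estimated reads per library, with a median of 12962318. The tissue labels went against the defining markers in many libraries, so libraries were grouped by content and keep their labels in the text. A library was called lung-content where the surfactant gene Sftpc reached 1000 CPM (read counts scaled to a common library total) and albumin (Alb) stayed under 1000, and liver-content where Alb reached 50000. There were 7 lung-content libraries, of which 3 were labelled lung and 4 liver, and 8 liver-content libraries, of which 4 were labelled lung and 4 liver. Their markers were far apart, with Sftpc at 4446 to 11758 CPM in lung-content against 0.0621 to 3.10 in liver-content libraries. The library labelled dead null placebo lung was mixed, with Sftpc at 5553 and Alb at 9280 CPM, and it entered no group. The ribosomal RNA entry Rn45s held 4.05% to 26.2% of counts in lung-content libraries and 24.3% in the mixed library. In liver-content libraries it held 0.845% to 6.29%. Levels below are CPM scaled by trimmed mean of M-values (TMM) over the 16 libraries. Gene-level Man1a2 was 60.8 CPM in the lung-content null library against 41.9 to 75.7 in the other lung-content libraries, and 34.1 and 34.7 in the liver-content null libraries against 29.6 to 51.9 in the others, a sum over all exons that does not isolate exon 2.

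Of the 9 members, 8 stood higher in every lung-content library than in any liver-content library, and Ihh stood higher in every liver-content library. Because content was read from marker genes of the same libraries, these differences are given as a description. Ranges were apart in the lung direction for 23.9% of 14175 genes and in the liver direction for 25.9%. On the log2(CPM + 1) scale, lung-content minus liver-content means were 4.0 for Shh, 3.41 for Hhip, 2.94 for Gli1, 2.44 for Gli2, 2.39 for Gli3, 1.97 for Ptch1, 0.98 for Smo and 0.68 for Sufu. The difference was -1.65 for Ihh. Adding 1 CPM shrinks the difference of a gene that is near or under 1 CPM in either content. Pooled over libraries, Ihh was 0.136 CPM in lung-content and 2.74 CPM in liver-content, and Shh was 20.8 and 0.114 CPM. The members' median was 2.39, beside -0.05 over all genes. Scaling by library size alone moved the all-gene median to 0.54 and Smo and Sufu to 1.62 and 1.30, which are 1.08 and 0.76 above that median. Fewer cells of a type and less RNA per cell cannot be told apart in such bulk libraries.

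Shh and Ihh divided by content, and each was close to undetected where the other was measured. Shh, the epithelial ligand of the lung, stood at 5.78 to 31.9 CPM in the 7 lung-content libraries, with a median of 18.8, and at 19.2 in the mixed library. The 8 liver-content libraries held 11 Shh counts in all, or 0.114 CPM (95% Poisson interval, 0.0569 to 0.204, counting error only), and 6 of these counts came from the library labelled dead null NAC liver. Ihh, a ligand best known from cartilage and gut, was the reverse. It stood at 1.01 to 6.27 CPM in liver-content libraries, with a median of 2.11, while the 7 lung-content libraries held 11 counts in all, or 0.136 CPM (0.0681 to 0.244). In the mixed library Ihh had 4 counts, or 0.405 CPM.

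The receptor side was present in both contents. Ptch1, the ligand receptor, stood at 35.2 to 90.5 CPM in lung-content and 10.8 to 26.0 in liver-content libraries. Smo, the signal transducer, stood at 38.6 to 62.6 CPM in lung-content and 17.4 to 30.8 in liver-content libraries. Hhip, the decoy receptor that binds ligand outside the cell, showed the widest gap after Shh, at 97.7 to 158.6 CPM against 7.10 to 17.2. Sufu, the cytoplasmic inhibitor of GLI proteins, differed least, at 21.1 to 28.3 CPM against 12.5 to 17.

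Among the transcription factors, Gli1, the activator and target, stood at 7.43 to 34.9 CPM in lung-content libraries. In liver-content libraries it stood at 0.461 to 2.96 CPM, from 5 to 30 counts. Gli2, the main activator downstream of Smo, stood at 6.90 to 12.4 CPM in lung-content and 0.386 to 1.66 in liver-content libraries. Gli3, which is processed to a repressor without ligand, stood at 8.57 to 18.3 CPM against 0.633 to 3.64.

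**Figure D1:**
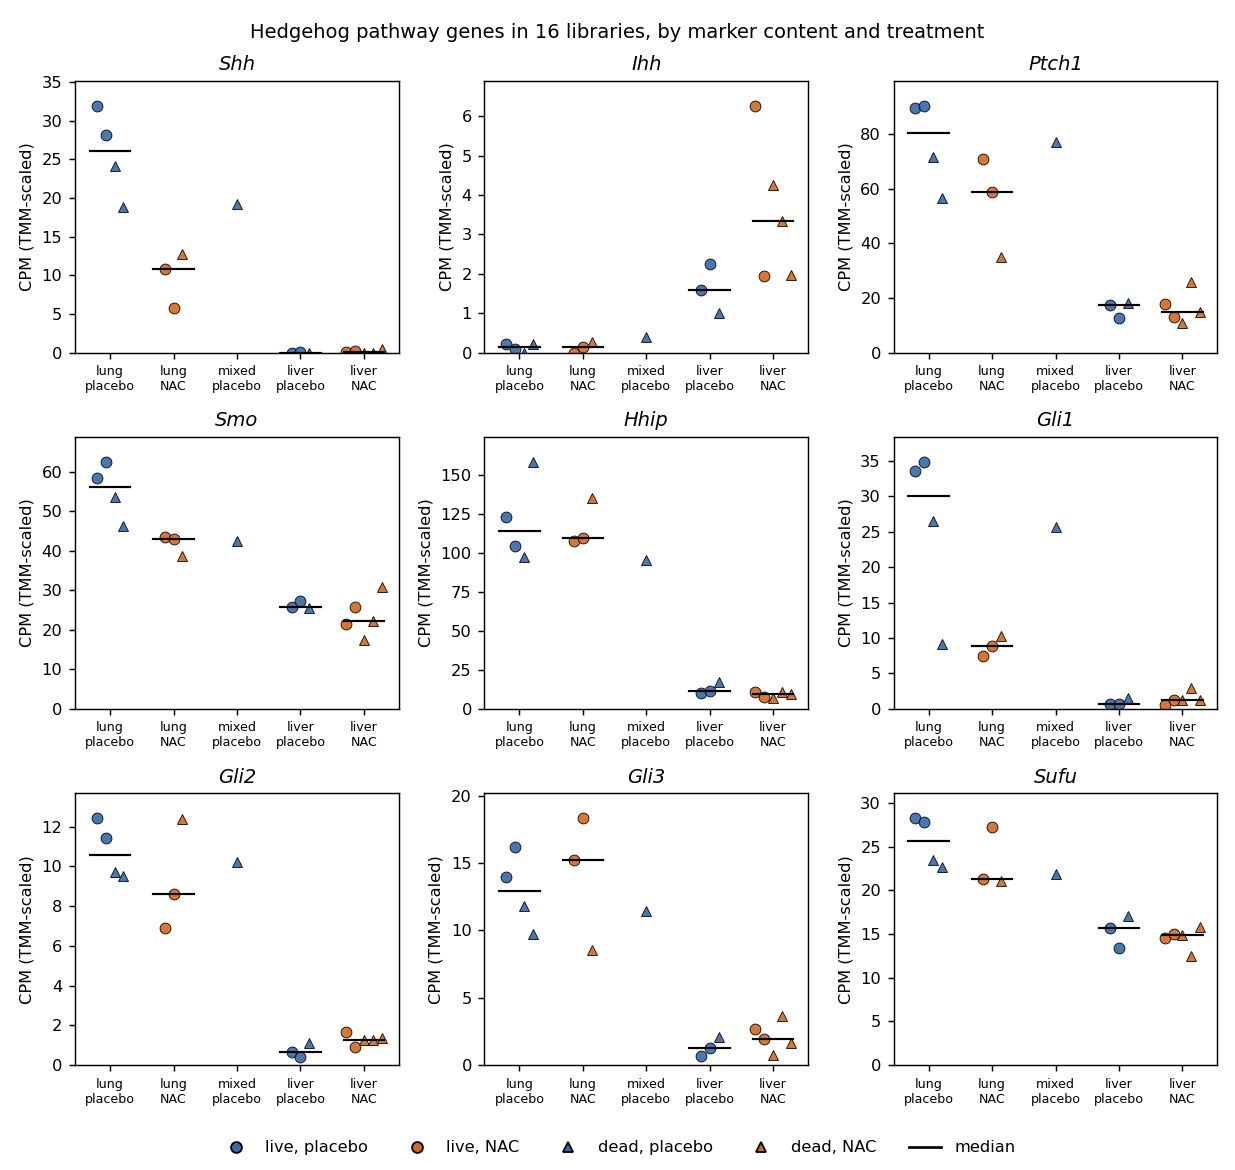
Level of each Hedgehog gene in the 16 libraries, in TMM-scaled CPM on a linear axis from 0, with libraries grouped by marker content and treatment, circles for live and triangles for dead pups, and a bar at the median of each group of more than 1 library. The 7 lung-content libraries lie above the 8 liver-content libraries for 8 genes and below them for Ihh, and within lung-content libraries Shh runs from 5.78 to 31.9 CPM and Gli1 from 7.43 to 34.9.

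Divided by exonic length, the order within lung-content libraries put the antagonist first and the GLI factors near the end. Hhip had a median of 12.1 CPM per kb, followed by Smo at 8.24, Shh at 6.62, Ptch1 at 5.01, Sufu at 3.06, Gli1 at 2.06, Gli3 at 1.46, Gli2 at 1.42 and Ihh at 0.0463. Neighbours in that order overlapped in range throughout, except that Gli2 and Ihh did not. In liver-content libraries Smo came first, with a median of 4.55 CPM per kb, apart in range from Sufu at 1.94. Ptch1 and Hhip followed at 1.14 each, then Ihh at 0.692, Gli1 at 0.247, Gli3 at 0.188, Gli2 at 0.170 and Shh at 0.0136.

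Within lung-content libraries, NAC was compared with placebo at equal survival status. The study itself compared NAC with placebo within each pup group and tissue. No dead null NAC library was lung-content, so the null genotype stood on the placebo side alone. The fit had no term for genotype, so treatment and genotype were in part confounded. Shh, Gli1 and Ptch1, which are the ligand and a pair of its transcriptional targets, were lower in NAC libraries. Hhip, another target, did not pass the test. Shh was 10.7, 5.78 and 12.8 CPM in the live WT, live heterozygous and dead heterozygous NAC libraries. In the placebo libraries it was 31.9, 28.1, 24.1 and, in the dead null group, 18.8 CPM. Every NAC library lay below every placebo library for Shh. The difference was -1.37 in log2 (SE 0.28), with an adjusted p of 0.0254 by edgeR's quasi-likelihood test with Benjamini-Hochberg adjustment over 13990 genes.

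Gli1, whose transcript is commonly read as a gauge of pathway output, had the largest fitted difference of the members tested. Its levels were 7.43, 8.88 and 10.3 CPM in the live WT, live heterozygous and dead heterozygous NAC libraries, from 83, 63 and 119 counts. They were 33.6, 34.9 and 26.5 CPM in the placebo libraries of the same pup groups, from 632, 399 and 310 counts, and 9.19 CPM from 82 counts in the dead null placebo library. The NAC libraries were thus low and the placebo libraries of the same pup groups high, with the library labelled dead null placebo among the NAC values. Whether the treatment label of that library is right cannot be told from these files, and the other treatment labels were not checked either. The dead null NAC libraries were both liver-content, and the dead null placebo libraries were lung-content and mixed. In every other pup group each treatment gave a lung-content and a liver-content library. Values without the lung-content dead null placebo library are given below. With all lung-content libraries in the fit, the difference for Gli1 was -1.54 in log2 (SE 0.38, adjusted p 0.0347, edgeR quasi-likelihood test with Benjamini-Hochberg adjustment).

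Ptch1 stood at 71.0, 58.9 and 35.2 CPM in the live WT, live heterozygous and dead heterozygous NAC libraries. In placebo libraries it stood at 89.6, 90.5 and 71.8 CPM in the same order and at 56.8 in the dead null group. The treatments overlapped, since the live WT and live heterozygous NAC libraries lay above the dead null placebo library, and the difference at equal survival status was -0.62 in log2 (SE 0.16, adjusted p 0.0371, same edgeR test). Smo, at 43.6, 43.0 and 38.6 CPM in NAC libraries and 58.4, 62.6, 53.8 and 46.3 in placebo libraries, did not overlap between treatments but missed the threshold, with a difference of -0.43 (SE 0.13, adjusted p 0.0516). In all, 3 of 8 members tested passed in the lower direction and 0 in the higher, where 5.53% of all genes were called lower and 7.81% higher. Ranges were apart with NAC lower for Shh and Smo, as for 15.1% of all genes, and with NAC higher for no member, against 14.4%.

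Hhip stood at 108.0, 109.5 and 135.7 CPM in NAC libraries and at 123.2, 104.9, 97.7 and 158.6 in placebo libraries. The treatments overlapped fully, and the difference was -0.00 (SE 0.18, adjusted p 0.994, same edgeR test). Gli2 differed by -0.21 (SE 0.23, adjusted p 0.546), Gli3 by -0.03 (SE 0.18, adjusted p 0.933) and Sufu by -0.17 (SE 0.14, adjusted p 0.403). Ihh did not pass the filter of a mean CPM of 1. The 8 members tested had a median of -0.32 beside -0.02 over all genes, and 8 of 8 were below 0, although Hhip changed sign to 0.01 under the relative log expression scaling. Scaling by library size alone moved the all-gene median to -0.24, below which Shh, Gli1 and Ptch1 stood by -1.33, -1.53 and -0.60. It also changed the direction of calls, from 58.5% higher of 1866 calls to 36.9% of 872.

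**Figure D2:**
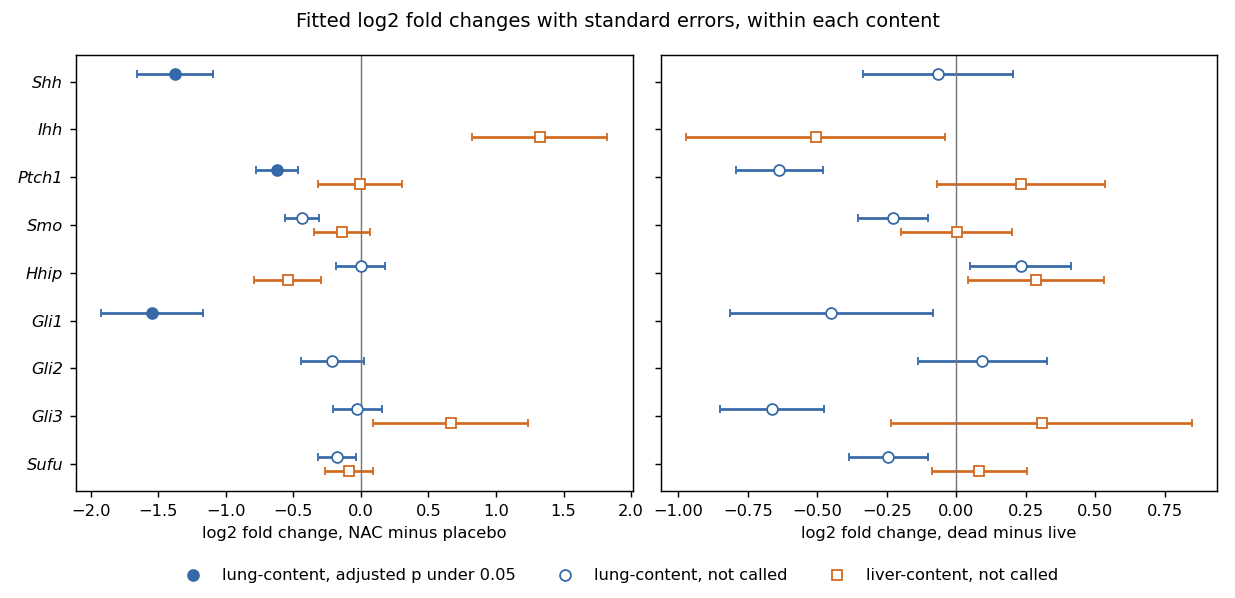
Fitted log2 differences of the tested Hedgehog genes with bars of 1 SE, for NAC against placebo and dead against live pups within lung-content and within liver-content libraries, with filled points where the adjusted p was under 0.05. Shh (-1.37), Gli1 (-1.54) and Ptch1 (-0.62) are filled in the NAC comparison of lung-content libraries, and no gene is filled in the other comparisons.

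The same-content pairs of a pup group gave the direction without a model. Shh was 2.97 times as high in placebo as in NAC libraries of live WT pups, 4.87 times in live heterozygous and 1.88 times in dead heterozygous pups. For Gli1 the ratios were 4.52, 3.92 and 2.57, for Ptch1 1.26, 1.54 and 2.04, and for Smo 1.34, 1.46 and 1.39. Sufu was also higher in placebo in all 3 pairs, at ratios of 1.33, 1.02 and 1.11. NAC was thus lower in all 3 pairs for 5 of the 8 members tested, as for 31.8% of 13990 genes. Hhip, Gli2 and Gli3 each had pairs on both sides of 1.

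These calls rested on few libraries. Leaving out the live WT placebo, the live heterozygous placebo, the dead heterozygous placebo or the live heterozygous NAC library left no member called, with 0, 0, 0 and 1 gene called in all. Without the live WT NAC library only Ptch1 of the members was called, among 947 of 14016 genes. Without the dead heterozygous NAC library Shh and Gli1 were called, among 2147 of 13992. Without the dead null placebo library, Shh, Ptch1, Smo and Gli1 were called among 4085 of 14012 genes. Across the 7 omissions the difference ran from -1.83 to -1.10 for Shh, from -2.07 to -1.32 for Gli1 and from -0.73 to -0.47 for Ptch1, and the adjusted p from 0.00487 to 0.101, from 0.000774 to 0.128 and from 0.0165 to 0.134. DESeq2 called these 3 members and Smo, among 2745 genes called of 13990. With pup group as a replicate block, a fit added after the data were seen, 3584 of 13990 genes were called by edgeR. Among them were 4 members, Shh (-1.54, adjusted p 0.00544), Gli1 (-1.82, adjusted p 0.00144), Ptch1 (-0.65, adjusted p 0.0245) and Smo (-0.47, adjusted p 0.0387). With treatment as the only term, Ptch1 was no longer called (-0.49, adjusted p 0.180, edgeR).

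Treatment was not balanced over tissue labels within lung-content libraries: 2 of 3 NAC libraries were labelled lung and 3 of 4 placebo libraries liver. Among those labelled lung, Gli1 was 7.43 and 8.88 CPM in NAC and 26.5 in placebo, and Shh was 10.7 and 5.78 in NAC and 24.1 in placebo. Among those labelled liver, Gli1 was 10.3 CPM in NAC against 9.19 to 34.9 in placebo, so that it overlapped, and Shh was 12.8 against 18.8 to 31.9. In the libraries labelled lung both NAC libraries came from live pups and the placebo library from dead pups, so treatment and survival cannot be told apart there.

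Markers of smooth muscle, a mesenchymal lineage of the lung, lay in the same direction as Gli1. The summed level of 6 smooth muscle markers was 252 to 372 CPM in NAC and 303 to 623 in placebo lung-content libraries, with the dead null placebo library at 303. All 6 markers were below 0 and 0 were called by edgeR, with 3 at an unadjusted p under 0.05 and 1 called by DESeq2. Over all 13990 genes, 34.45% had an unadjusted p under 0.05 by edgeR and DESeq2 called 2745. The sum of 10 lung mesenchyme markers was 2507 to 3014 CPM in NAC and 2229 to 2889 in placebo libraries, and that of 10 lung epithelium markers was 10001 to 16134 and 12475 to 13951. Of the mesenchyme markers, 8 were above 0 and 2 below, with a median of 0.18. Of the epithelium markers, 7 were above 0 and 3 below, with a median of 0.11. By the same edgeR test 1 of the mesenchyme markers was called, Tcf21, which was lower (-0.67, adjusted p 0.0438). From the epithelium markers 2 were called higher, Cdh1 (0.85, adjusted p 0.0302) and Epcam (0.64, adjusted p 0.0359). Hepatocyte markers summed to 50.2 to 186.5 CPM in NAC and 16.9 to 177.7 in placebo libraries, against 115090 to 209600 in liver-content libraries. The part of these cell types in the Gli1, Shh and Ptch1 differences was not tested.

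Ratios between members were read within each library, where scaling has no part. They were chosen after the values were seen and are given as a description. Hhip was 3.67, 3.01 and 3.69 times Gli1 in the live WT, live heterozygous and dead heterozygous placebo libraries, and 3.73 times in the mixed dead null placebo library. It was 14.5, 12.3 and 13.2 times Gli1 in the NAC libraries of the same groups, and 17.3 times in the lung-content dead null placebo library. The Gli1 to Gli2 ratio ran the other way, at 2.70, 3.05 and 2.72 in placebo and 2.52 in the mixed library, against 1.08, 1.03 and 0.832 in NAC. The lung-content dead null placebo library stood with the NAC libraries again, at 0.965. Its Shh and Smo levels lay outside the NAC range, on the placebo side.

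**Figure D3:**
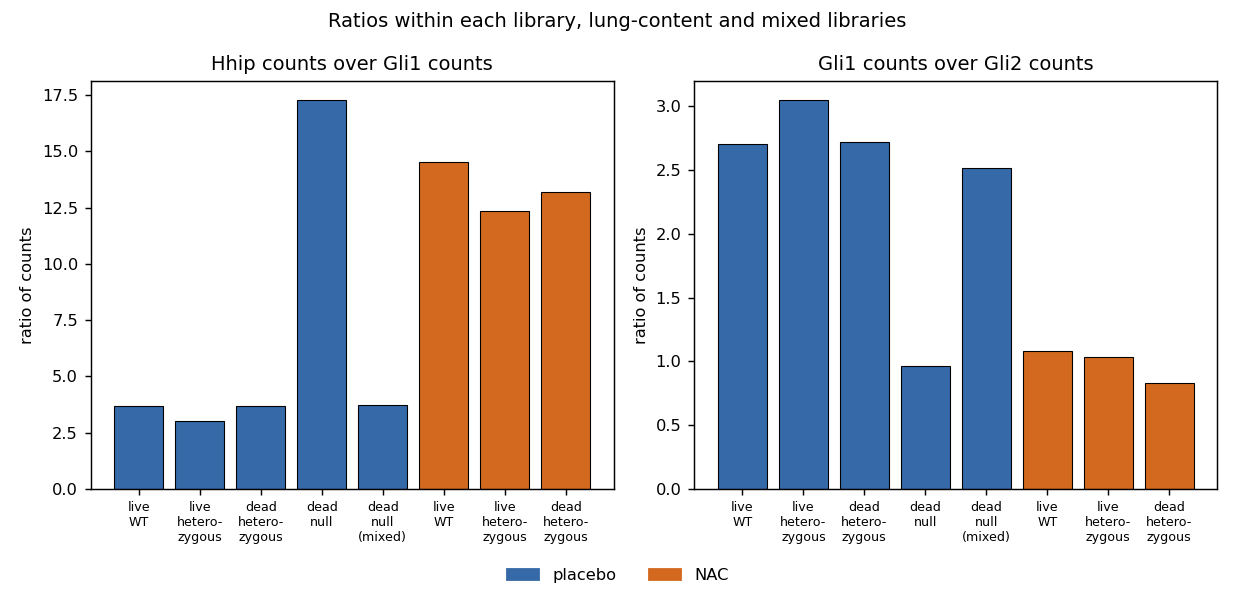
Ratios of Hhip to Gli1 and of Gli1 to Gli2 in the 7 lung-content libraries and the mixed library, as bars of counts over counts from 0, coloured by treatment and named by pup group. Placebo libraries lie at 3.01 to 3.73 and NAC libraries at 12.3 to 14.5 for Hhip to Gli1, with the lung-content dead null placebo library (labelled liver) at 17.3.

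The 2 libraries of dead null placebo pups therefore differed from each other in these genes. The mixed library, labelled lung, held Gli1 at 25.7 CPM, Ptch1 at 77.3, Shh at 19.2 and Hhip at 95.8, while the lung-content library, labelled liver, held 9.19, 56.8, 18.8 and 158.6. Shh was alike in both and Gli1 was not. The mixed library carried hepatocyte markers at 15507 CPM, against 16.9 to 186.5 in lung-content libraries. Adding the mixed library to the fit gave 4 members called, Shh, Ptch1, Smo and Gli1, among 1946 of 14188 genes.

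Other genes of the pathway were read from 4 lists. Among 11 tested genes for ligand reception and release, 2 were called lower in NAC and 0 higher, with a median of -0.19, beside 5.53% of all genes called lower and 7.81% higher. The 2 were the endocytic receptor Lrp2 (-1.13, SE 0.24, adjusted p 0.0264) and the co-receptor Cdon (-0.77, SE 0.17, adjusted p 0.0267), both by the edgeR test. Lrp2 was 5.46, 6.49 and 9.61 CPM in NAC libraries and 15.8, 13.1, 13.2 and 23.5 in placebo libraries, the last from the dead null group, without overlap. Cdon stood at 9.61 to 13.5 CPM in NAC and 16.7 to 20.6 in placebo libraries, also without overlap. Of 17 transduction genes tested, 2 were lower and 0 higher, beside the same shares of all genes. They were Stk36 (-1.12, adjusted p 0.0225), a kinase with roles in GLI regulation and motile cilia, and Gpr161 (-0.81, adjusted p 0.0486), a ciliary receptor that restrains the pathway.

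Of 13 genes known as GLI targets, 2 were called lower (Gli1 and Ptch1), 2 were called higher and 9 were not called, against the same shares of all genes. Their median was -0.49, with 10 of 13 below 0. Foxf1, a mesenchymal transcription factor of the lung, was higher in NAC (0.66, adjusted p 0.0349, edgeR), at 257.4, 304.4 and 244.7 CPM against 163.6, 174.2, 196.8 and 143.2 in placebo. Jag2, a Notch ligand, was also higher (0.95, adjusted p 0.0454), at 66.5 to 90.5 CPM against 31.3 to 64.0. Foxl1, named after its value was seen, had the widest difference of the list at -1.80 and was not called (adjusted p 0.0837). Of 8 genes of the cilium needed for GLI processing, 0 were called by edgeR (4 at an unadjusted p under 0.05, 0 by DESeq2) and all 8 were below 0, with a median of -0.40. Of all 13990 genes, 4820 (34.45%) had an unadjusted p under 0.05 by edgeR and 2745 were called by DESeq2. The lists share members, and Gli1, Ptch1 and Hhip also stand in the target list. In the other 3 comparisons within content, 0 genes of the 4 lists were called by edgeR and 0 by DESeq2, with 0 or 1 of each list at an unadjusted p under 0.05.

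**Figure D4:**
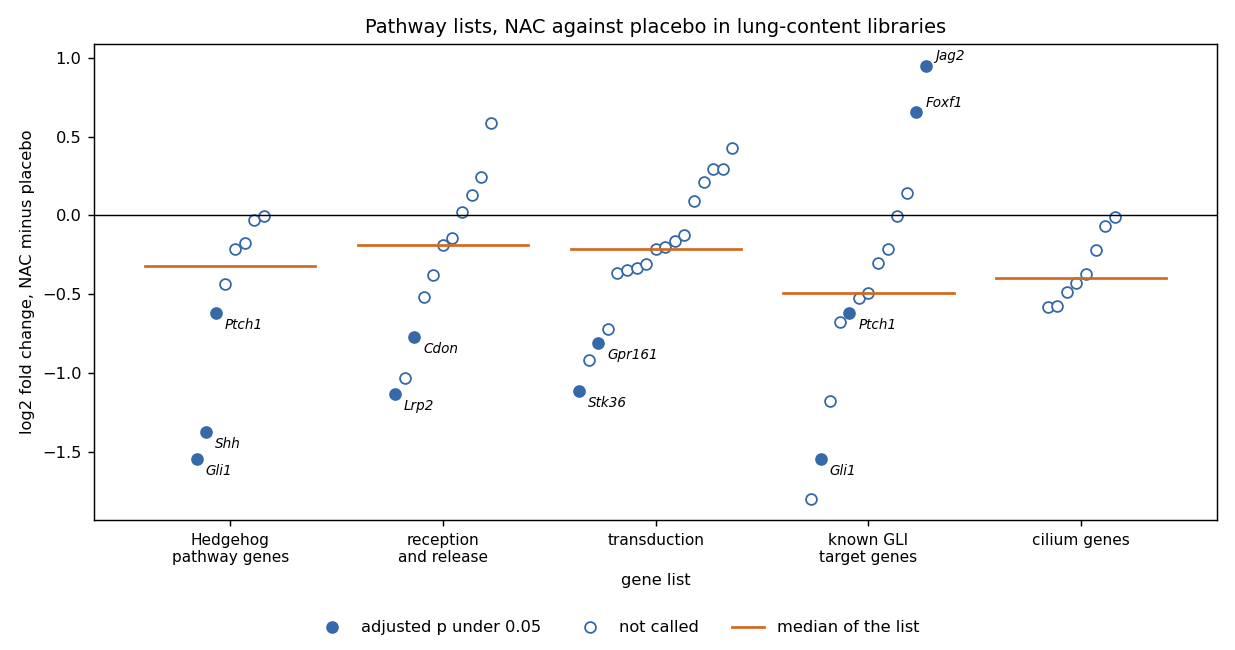
Fitted log2 differences of NAC against placebo in lung-content libraries for each tested gene of the Hedgehog members and of 4 pathway lists, with filled points where the adjusted p was under 0.05 and a bar at each list's median. The medians lie at -0.32 for the members, -0.19 for reception, -0.21 for transduction, -0.49 for GLI targets and -0.40 for cilium genes, beside -0.02 over all genes.

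Dead and live pups were compared within lung-content libraries at equal treatment, to ask what accompanied death before 24 hours. Tissue was taken at death or, from survivors, at 24 hours, so survival, age at harvest and, in part, genotype cannot be told apart. Gli3 and Ptch1 gave the widest differences, but no member passed. Gli3 was 14, 15.2, 16.2 and 18.3 CPM in live pups and 11.8, 8.57 and 9.75 in dead pups. Every dead library lay below every live one, as for 1.21% of all genes (1.49% in the other direction), and the difference was -0.66 (SE 0.19, unadjusted p 0.00611, edgeR). Ptch1 differed by -0.64 (SE 0.16, unadjusted p 0.00284, adjusted p 1.00). Shh differed by -0.07, Gli1 by -0.45, Gli2 by 0.09, Smo by -0.23, Hhip by 0.23 and Sufu by -0.24. By edgeR's quasi-likelihood test 0 of 13990 genes were called (0% in each direction), 508 had an unadjusted p under 0.05, and DESeq2 called 19.

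In liver-content libraries no member was called for NAC or for survival. For NAC against placebo, 0 of 12993 genes were called by edgeR (0% in each direction), with 260 at an unadjusted p under 0.05 and 1 called by DESeq2. For dead against live pups, 0 were called (0% in each direction), with 702 and 45. Only 6 members passed the filter there, since Shh, Gli1 and Gli2 did not.

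Ihh gave the widest difference in liver-content libraries. It was 1.58, 2.24 and 1.01 CPM in placebo libraries of live WT, live heterozygous and dead heterozygous pups. It was 6.27, 1.94 and 4.26 CPM in NAC libraries of those groups, and 3.35 and 1.98 in the dead null NAC libraries. The live heterozygous and 1 of the dead null NAC libraries lay within the placebo range. For all 9 members the treatments overlapped there, where 0.954% of genes were apart with NAC higher and 0.493% with NAC lower. For Ihh the difference was 1.32 (SE 0.50, unadjusted p 0.0281, adjusted p 1.00, edgeR). The libraries differed also in skeletal muscle markers, whose sum was 914 CPM in the live WT NAC library that was highest for Ihh, 344 in dead heterozygous NAC and 762 in 1 dead null NAC library, against 5.58 to 117 in the others. That same dead null NAC library, labelled lung, held chondrocyte markers at 383 CPM, against 4.17 to 18.7 in the other liver-content libraries, with Ihh at 3.35. The part of these tissues in the Ihh values was not tested.

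The other members in liver-content libraries gave smaller differences. For NAC, Hhip differed by -0.54 (SE 0.25, unadjusted p 0.0586, edgeR), Gli3 by 0.66, Smo by -0.14, Sufu by -0.09 and Ptch1 by -0.01. For survival, Ihh differed by -0.51, Gli3 by 0.31, Hhip by 0.29, Ptch1 by 0.23, Sufu by 0.08 and Smo by 0.00. Gli1, untested at its low level, was 0.712, 0.461, 0.618 and 1.21 CPM in live pups and 1.55, 1.25, 2.96 and 1.26 in dead pups. Dead libraries were all above live ones, but the nearest live and dead libraries held 15 counts each and lay within counting error of each other. Of the genes tested, which do not include Gli1, ranges were apart with dead higher for 1.35% and with dead lower for 1.19%.

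Whether the NAC difference itself depended on content was tested with an interaction term over the 15 lung-content and liver-content libraries. The lung-content minus liver-content change was -1.82 for Gli1 (SE 0.66, adjusted p 0.287, edgeR) and -3.75 for Shh (SE 1.41, adjusted p 0.298). It was -0.61 for Ptch1 (adjusted p 0.464). No gene of 14175 was called (0% in each direction), with 1952 at an unadjusted p under 0.05 and 227 called by DESeq2. For Shh the liver side of that term came from 11 counts. The survival difference gave 1 gene (0.00705%), which was not a member, with 651 at an unadjusted p under 0.05 and 7 by DESeq2. Shh, Gli1 and Gli2 did not pass the filter in liver-content libraries alone, so they entered this fit through the lung-content libraries. The fit ignored that most pup groups and treatments gave both a lung-content and a liver-content library. With each pup group and treatment as a replicate block, a fit added after the data were seen, 0 genes were called by edgeR for NAC (2241 at an unadjusted p under 0.05) and 0 for survival (827), and for NAC the terms were -1.85 for Gli1 (adjusted p 0.227) and -0.44 for Ptch1 (adjusted p 0.542).

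As labelled, the comparison of NAC with placebo within a pup group and tissue gave large changes of the Hedgehog genes in opposite directions. These pairs have 1 library on each side and carry no test, and in 7 of the 8 pairs a lung-content library was set against a liver-content one, while in the dead null lung pair the mixed library was set against a liver-content one. Gli1 differed by 3.37 in log2 in live WT pups labelled lung and by -6.16 in those labelled liver. In live heterozygous pups it differed by 3.82 and -4.83, in dead heterozygous pups by -4.39 and 2.72, and in dead null pups by -3.12 and -2.85. The sign followed which library of the pair was lung-content in each case, with Gli1 higher on the side with more lung markers. Shh went the same way, by at least 5.50 in live WT lung and at most -6.59 in dead heterozygous lung, where the other library held 0 counts and was set to a floor of 3.

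Counted past a difference of 1 in log2, 6 of 8 members were higher in the live WT lung pair and 0 lower, where 27.7% of genes were higher and 28.2% lower. In the live heterozygous lung pair 7 of 8 were higher (28.8%) and 0 lower (31.5%), and in the dead heterozygous liver pair 5 of 8 were higher (26.6%) and 0 lower (25%). The remaining pairs ran the other way. In the live WT liver pair 7 of 9 were lower (25.9%) and 1 higher (24.2%), in the live heterozygous liver pair 7 of 8 lower (25.5%) and 0 higher (24.9%), and in the dead heterozygous lung pair 7 of 9 lower (26.2%) and 1 higher (25%). In the dead null pups, 6 of 9 were lower (25%) and 1 higher (21.9%) in the lung pair, and 6 of 8 lower (27%) and 0 higher (28.8%) in the liver pair. Where a single member was higher in these pairs it was Ihh. Scaling by library size alone moved the all-gene medians of the pairs to between -1.05 and 0.59, from between -0.09 and 0.08.

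**Figure D5:**
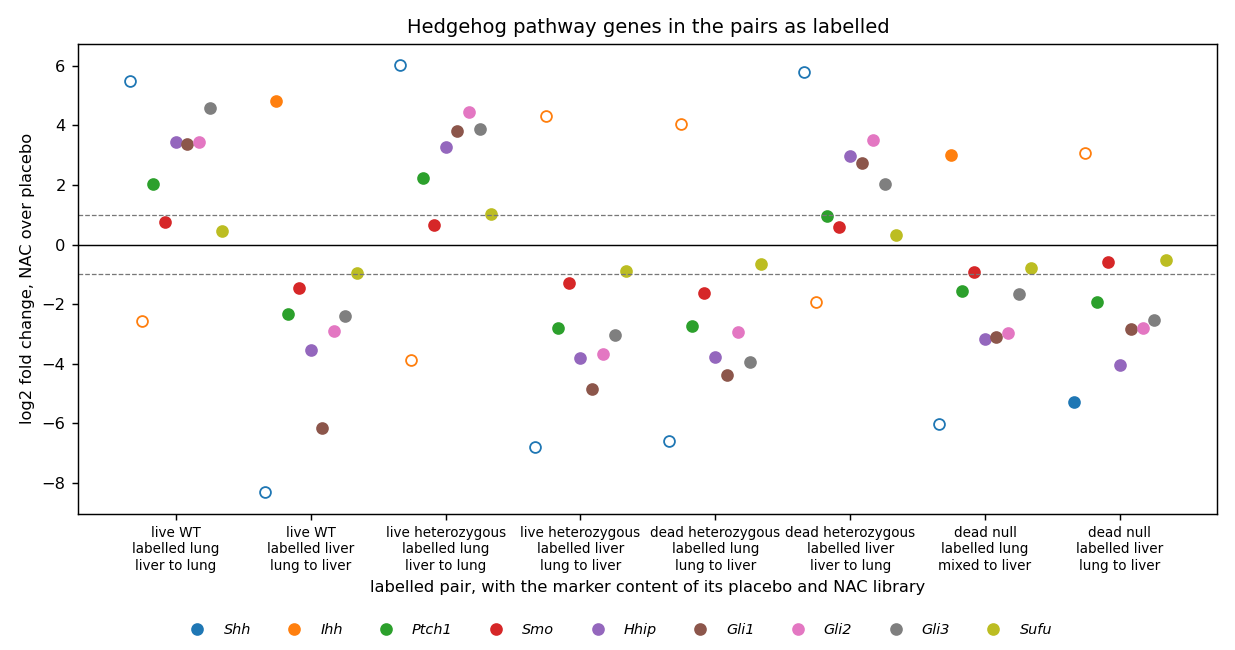
Log2 difference of NAC against placebo for each Hedgehog gene in the 8 labelled pairs of pup group and tissue, 1 library on each side and no error bar. Open points mark genes with 0 to 3 counts on a side, and the axis labels give the marker content of each placebo and NAC library. Genes other than Ihh lie above 0 in the live WT lung, live heterozygous lung and dead heterozygous liver pairs and below 0 in the remaining pairs.

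The tissue label itself was tested over all libraries with each pup group and treatment as a block, to see whether labels carried any shared difference. Members differed by -1.27 (Shh) to 0.57 (Gli1) in log2 for lung against liver label, with adjusted p of 1 by edgeR. No gene of 14184 was called (0% in each direction), 7 had an unadjusted p under 0.05, and DESeq2 called 0.

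Finally, the genes whose log2(CPM + 1) followed a member most closely over the 16 libraries were read from 14184 genes by Pearson's r. Such values are a description only, since the libraries fall into lung-content and liver-content groups. For Shh they were Slc27a6 (0.996), Unc5c (0.996) and Mlc1 (0.995). For Gli1 they were St8sia2 (0.986), Sema4f (0.985) and Moxd1 (0.979), and for Ihh they were Syne4 (0.959), Gm6484 (0.958) and Morc4 (0.957). In lung-content libraries St8sia2 ran from 5.20 to 24.0 CPM, Sema4f from 5.20 to 31.3 and Moxd1 from 1.16 to 2.76, beside 7.43 to 34.9 for Gli1.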

How the data were processed

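Total RNA of lung and liver, pooled by pup group, was sequenced as stranded mRNA libraries. The authors trimmed adapters and aligned reads to the Ensembl mouse B38 genome (mm10 in the submitters' processing notes, which also name R 4.0.3 and edgeR 3.30.3) with the Omicsoft Sequence Aligner, and the deposited table holds estimated counts of uniquely mapped reads per gene. Between 6.5% and 8.24% of values in a library were not whole, so they were rounded here, and the tests planned for raw counts were run on the rounded values. Whether counting used strand was not given in the sources used here.

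Symbols of the 9 Hedgehog genes were matched exactly, and positions and exonic lengths were taken from the GENCODE annotation of GRCm38. The members and gene lists were chosen with earlier results of these data known. Named genes were the 9 members, the genes of 4 pathway lists past an adjusted p of 0.05 within content (at most 6 a list), and the 3 genes with the highest correlation to each of Shh, Ihh and Gli1. 1 gene of the lists is not reported here and was left out of their counts.

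Within lung-content and within liver-content libraries, edgeR 4.0.16 (R 4.3.3) was used with TMM factors of the libraries in the fit, a mean CPM of at least 1, a prior count of 0.125 and terms for treatment and survival. The quasi-likelihood test was adjusted by Benjamini-Hochberg over all genes tested, and genes with an adjusted p under 0.05 were called. Survival includes genotype, as WT pups were live and null pups dead, and age, as tissue was taken at death or at 24 hours. Interaction terms were fitted over 15 libraries, and the tissue label over 16 with each pup group and treatment as a block. Labelled pairs had 1 library a side and were read by fold at a set coefficient of variation of 0.2, with a floor of 3 counts and no test. DESeq2 1.42.0, other scalings, no filter, other terms, the mixed library, replicate blocks (added after seeing the data) and each library left out in turn were alternatives. On simulated counts for the lung-content treatment comparison, 53 of 100 genes changed 2-fold and 96 of 100 changed 4-fold were recovered, with 10 other genes called among 13990. For the liver-content treatment comparison 9 and 64 of 100 were recovered, with 1 other gene called among 12993. Tables and plots were made with Python 3.11.15, pandas 2.3.3, numpy 2.4.6, scipy 1.17.1 and matplotlib 3.10.9. Poisson intervals at 95% cover counting error only.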

Additional observations from a re-analysis of the deposited data

Results flagged for a closer look

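Within groups of 4 or 5 libraries, 3 of 45 sets of member levels held a library set apart from the others by Dixon's ratio. A rate of about 1 in 20 is set for separate sets, and these sets shared libraries, so no rate by chance is given. Ihh was 6.27 CPM (68 counts) in the live WT NAC library labelled liver, against 2.24 CPM in the nearest of the live liver-content libraries. Shh was 0.474 CPM (6 counts) in the dead null NAC library labelled liver, while the other dead liver-content libraries held 0 counts. With the others all at 0, any count above 0 would have given the same ratio of 1. Sufu was 21.3 CPM (238 counts) in the live WT NAC library labelled lung, below the nearest live lung-content library at 27.2 CPM.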

How the results depend on the processing

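With pup group as a replicate block, added after seeing the data, the 1866 calls for NAC in lung-content libraries became 3584 (Hhip 0.12), and 0 genes stayed called in liver-content libraries. With each pup group and treatment as a replicate block, 0 genes were called for both differences between contents, and Smo was 0.0702 for survival. For the tissue label, 0 genes were called with the block and 0 with no replicate block. Shh, Gli1, Ptch1 and Smo stayed below 0 for NAC in lung-content libraries under all 15 settings. The 1866 calls became 872 with library size alone and ran from 0 to 4085 over the libraries left out: 0 without the live WT, live heterozygous or dead heterozygous placebo library, 1 without live heterozygous NAC, 947 without live WT NAC and 4085 without dead null placebo. For dead against live pups in lung-content libraries the 0 calls became 1 with no filter, 19 with DESeq2 and 7 in heterozygous libraries alone. In liver-content libraries they became 1, 45 and 1920, with none of the members among them, and 0 to 11 over libraries left out (11 without the dead null NAC library labelled liver). DESeq2 gave 1 call for NAC in liver-content libraries. For the differences between contents it gave 7 for survival and 227 for NAC, and library size alone gave 1 for NAC. The cause was not tested.

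The sign changes were in differences that were not called. For NAC in lung-content libraries, Hhip was 0.0106 with relative log expression factors, 0.0088 with no filter and 0.0106 with DESeq2, and 0.0515 with the mixed library, and Gli3 was 0.11 with treatment as the only term. For survival in lung-content libraries Shh was 0.37 in heterozygous libraries alone. For survival in liver-content libraries Smo was -0.0288 with library size alone, -0.0042 with no filter, -0.0352 with survival alone and -0.29 in heterozygous libraries, where Ihh was 0.14 and Gli3 -0.18. For NAC in liver-content libraries Ptch1 was 0.0511 with treatment alone and Gli3 was -0.60 with the mixed library. Over libraries left out, survival in lung-content libraries ran from -0.48 to 0.12 for Shh and from -0.31 to 0.21 for Gli2, and NAC from -0.12 to 0.12 for Hhip and from -0.14 to 0.16 for Gli3. In liver-content libraries survival ran from -0.13 to 0.10 for Smo, -0.92 to 0.0217 for Ihh, -0.18 to 0.60 for Gli3, -0.0208 to 0.13 for Sufu and -0.0281 to 0.39 for Ptch1. NAC there ran from -0.20 to 0.10 for Ptch1 and from -0.17 to 0.039 for Sufu.

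Depth limits the low members: Shh and Gli1 in liver-content libraries and Ihh in lung-content libraries rest on few counts. With 1 pooled library for each group, treatment and tissue, variation between pups was not measured.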

Other observations

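Among other markers of the lung mesenchyme, Pdgfra, a receptor of alveolar fibroblasts, differed by 1.03 in log2 for NAC against placebo in lung-content libraries and was not called (adjusted p 0.0631, edgeR quasi-likelihood test with Benjamini-Hochberg adjustment). It was named after its values were seen. It stood at 171 to 202 CPM in NAC libraries and at 63.4 to 89.2 CPM in placebo libraries other than the dead null one, which held 212 CPM. For Gli1 and Ptch1 this library lay among the NAC libraries. For Jag2, at 64.0 CPM, it lay closer to the NAC libraries (66.5 to 90.5 CPM) than to the other lung-content placebo libraries (31.3 to 37.9 CPM). For Shh, Smo, Lrp2, Cdon, Stk36, Gpr161 and Foxf1 it lay outside the NAC range, on the placebo side. Of the smooth muscle markers, Acta2 (114 CPM) and Actg2 (7.85 CPM) lay within the NAC range in this library. Cnn1, at 2.47 CPM, lay below the NAC libraries (4.37 to 8.39 CPM), while the other lung-content placebo libraries held 14.6 to 21.6 CPM. Tagln, at 93.1 CPM, lay just above the NAC range (67.1 to 92.4 CPM). Listed genes that were not called were not tallied in full, so these names give no share. This was the only lung-content null library, so genotype and a wrong treatment label cannot be told apart there.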
